A study of Sus scrofa with 23 samples.

Results

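The genes described here encode subunits of the mitochondrial respiratory chain and of ATP synthase that are carried in nuclear DNA. They were taken by symbol from the transcript table of the pig genome Sscrofa11.1, as NDUFA, NDUFB, NDUFC, NDUFS or NDUFV followed by a number, SDHA to SDHD, and names starting with UQCR, COX4 to COX8 or ATP5. The rule found 68 of 26687 genes, and 67 of the 68 had at least 10 counts in at least 12 of the 23 libraries, as did 20880 genes of the series. The exception was COX8H, a muscle form of a cytochrome c oxidase subunit, with between 2 and 18 counts in a library. By complex, the 68 genes were 36 of complex I, 4 of complex II, 2 of complex III, 9 of complex IV (8 of them past the count rule) and 15 of ATP synthase. The remaining 2, ATP5S and ATP5SL, carry an ATP5 name but encode no subunit. NDUFA4, named after complex I, was counted with complex IV, to which its protein belongs.

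Total RNA depleted of ribosomal RNA was sequenced from kidney cortex of 23 pigs, all newborn. By their labels 11 pigs carried no intact CFTR allele (CFTR-/-, here CF), 6 carried a single one (CFTR+/-, here HET) and 6 were CFTR+/+ (here WT), and the study compared CF with non-CF pigs, here the 12 libraries labelled WT or HET. CFTR, the disrupted gene, went against its labels: it lay between 1.27 and 3.67 CPM (counts scaled to the size of the library) under the WT label, 9.41 to 17.5 under HET and 12.5 to 23.5 under CF. Group names below stand for these labels, not for a genotype seen in the RNA. Libraries held between 32901281 and 52952273 estimated counts, and the lowest count of a tested respiratory chain gene in any library was 331. The pig numbers fall into 2 runs that separate on the second axis of a multidimensional scaling. Pigs 1 to 6 and 12 to 18 are called the earlier pigs here (6 CF, 3 HET, 4 WT), and pigs 7 to 11 and 19 to 23 the later pigs (5 CF, 3 HET, 2 WT). The labels name no batch. WT pig 12 held the largest share of ribosomal RNA, 7.14% of counts against a median of 0.144%. Defining genes of the tubule were present in every library: the summed level of 16 proximal tubule genes ran from 8588 to 16465 CPM. Kidney cortex is a mixture of cell types, and in such bulk RNA fewer cells of a mitochondria-rich type and less RNA per cell cannot be told apart.

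The respiratory chain passes electrons from NADH (complex I) or succinate (complex II) through ubiquinone to complex III, then through cytochrome c to complex IV, which reduces oxygen. Complexes I, III and IV pump protons as they do so, and ATP synthase uses the proton gradient to make ATP. Kidney tubule cells are rich in mitochondria because their sodium pumps, which drive the uptake of filtered solutes, consume much ATP. Factors known to act on promoters of these genes are NRF1, GABP (an ETS factor), YY1 and the estrogen-related receptors.

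The genes moved together across pigs, as given further on, and the letters of 5 known promoter motifs were searched on both strands of the 280 bases from 250 before to 30 after the start of each gene's most abundant transcript. The NRF1 core (GCGCATGCG) was found in 7 of 67 tested genes, 10.4%, against 2.10% of 16990 promoters of tested genes. The YY1 core (AAGATGGCG) was found in 7, 10.4% against 1.47%, and the ETS core (CCGGAAGT) in 8, 11.9% against 5.03%. The ERR core (TCAAGGTCA) was found in 2, 2.99% against 0.288%, and the CCAAT box (CCAAT) in 21, 31.3% against 33.5%. No motif contains another. A match describes the letters in the window and not a site that is bound, and the median GC content of the windows was 59.6% against 61.1%.

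Promoter windows are printed for the 2 genes with the smallest p of complex IV and ATP synthase (COX6B and ATP5G1), for 2 complex I genes that passed the test in the later pigs (NDUFB6 and NDUFA5), for NDUFB4, with 2 overlapping matches of the NRF1 core, 1 on each strand, and for SDHD, the only complex II gene with 3 kinds of motif. Capitals mark the motifs on either strand, and the sequences were read from RefSeq's Sscrofa11.1, 5′ to 3′ on the strand of the gene: COX6B from chr6:45091579-45091858 on the plus strand, ATP5G1 from chr12:25110564-25110843 on the plus strand, NDUFB6 from chr10:33849093-33849372 on the plus strand, NDUFA5 from chr18:23881622-23881901 on the plus strand, NDUFB4 from chr13:139730463-139730742 on the minus strand and SDHD from chr9:39790404-39790683 on the plus strand.
COX6B: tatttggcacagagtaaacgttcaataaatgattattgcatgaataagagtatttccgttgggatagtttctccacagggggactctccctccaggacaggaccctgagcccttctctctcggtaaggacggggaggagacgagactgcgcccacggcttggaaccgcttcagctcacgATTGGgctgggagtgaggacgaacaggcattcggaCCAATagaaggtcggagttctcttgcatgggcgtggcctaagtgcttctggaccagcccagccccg
ATP5G1: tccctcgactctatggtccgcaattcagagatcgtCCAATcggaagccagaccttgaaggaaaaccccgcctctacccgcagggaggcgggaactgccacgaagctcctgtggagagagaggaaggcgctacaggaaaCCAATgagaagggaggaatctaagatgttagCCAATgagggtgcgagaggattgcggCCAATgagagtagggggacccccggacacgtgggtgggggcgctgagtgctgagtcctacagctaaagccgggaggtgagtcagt
NDUFB6: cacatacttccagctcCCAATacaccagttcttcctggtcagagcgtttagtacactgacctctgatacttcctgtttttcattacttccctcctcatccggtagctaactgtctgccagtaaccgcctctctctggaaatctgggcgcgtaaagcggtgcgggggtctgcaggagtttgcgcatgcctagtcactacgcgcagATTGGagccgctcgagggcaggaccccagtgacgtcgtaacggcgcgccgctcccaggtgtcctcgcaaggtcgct
NDUFA5: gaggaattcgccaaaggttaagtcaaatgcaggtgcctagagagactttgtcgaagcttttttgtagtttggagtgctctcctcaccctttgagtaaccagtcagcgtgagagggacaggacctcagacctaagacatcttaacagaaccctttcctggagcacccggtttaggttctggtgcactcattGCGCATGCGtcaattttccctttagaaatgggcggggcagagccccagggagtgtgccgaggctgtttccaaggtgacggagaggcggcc
NDUFB4: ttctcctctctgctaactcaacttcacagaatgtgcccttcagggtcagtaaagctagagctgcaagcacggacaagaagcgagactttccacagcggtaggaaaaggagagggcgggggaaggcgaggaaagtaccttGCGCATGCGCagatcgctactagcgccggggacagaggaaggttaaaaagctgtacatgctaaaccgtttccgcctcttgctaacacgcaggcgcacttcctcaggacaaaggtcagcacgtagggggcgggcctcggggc
SDHD: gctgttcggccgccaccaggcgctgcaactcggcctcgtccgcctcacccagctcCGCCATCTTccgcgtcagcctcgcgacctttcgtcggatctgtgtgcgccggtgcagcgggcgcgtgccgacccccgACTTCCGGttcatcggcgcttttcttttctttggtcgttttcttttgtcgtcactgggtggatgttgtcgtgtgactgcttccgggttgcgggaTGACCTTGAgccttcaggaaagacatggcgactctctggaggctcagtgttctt
The windows of COX6B and ATP5G1 hold CCAAT boxes only, and that of NDUFA5 a single NRF1 core. The NRF1 core was in 4 of 36 windows of complex I and 3 of 15 of ATP synthase, and in none of complexes II, III and IV. The 2 windows of complex III held none of the 5 motifs.

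All complexes were strongly expressed. Levels between genes are given in TPM, transcript shares that correct for transcript length. A single non-coding RNA took between 42.1% and 53.2% of the TPM of a library, which lowers the TPM of every other gene. Of the 67 genes, 58 were among the 1000 highest of the 20921 genes tested, whose median was 5.20 TPM. The median TPM was 90.1 over the genes of complex I, 171 over complex II, 244 over complex III, 369 over complex IV and 336 over ATP synthase. Among the genes taken by the rule, those of complex I were thus the lowest as a group. Those of complex IV and ATP synthase were the highest, close to each other relative to their spread of 69.4 and 75.4 (SD over libraries). The value for complex III rests on 2 genes, and its subunits under LOC numbers stood between 65.2 and 304 TPM. Within complex I the levels ran from NDUFB9 (248 TPM) and NDUFB4 (187 TPM) to NDUFB1 (42.1 TPM) and NDUFA5 (17.7 TPM), all of them accessory subunits around the catalytic core. The place of NDUFA5 rests on the correction for its effective length of 2595 bases. Its counts (1154 to 3056) were above those of NDUFB1 (331 to 892). Within ATP synthase the highest were ATP5B and ATP5A1, the catalytic beta and alpha subunits of the F1 head, at 656 and 572 TPM. The lowest of its subunits were ATP5D (101 TPM), the delta subunit of the central stalk, and ATP5L (85.2 TPM), a small membrane subunit. The place of ATP5L rests on the correction for its effective length of 2581 bases. Its counts (6093 to 13509) were above those of ATP5D (3123 to 7575).

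**Figure D1:**
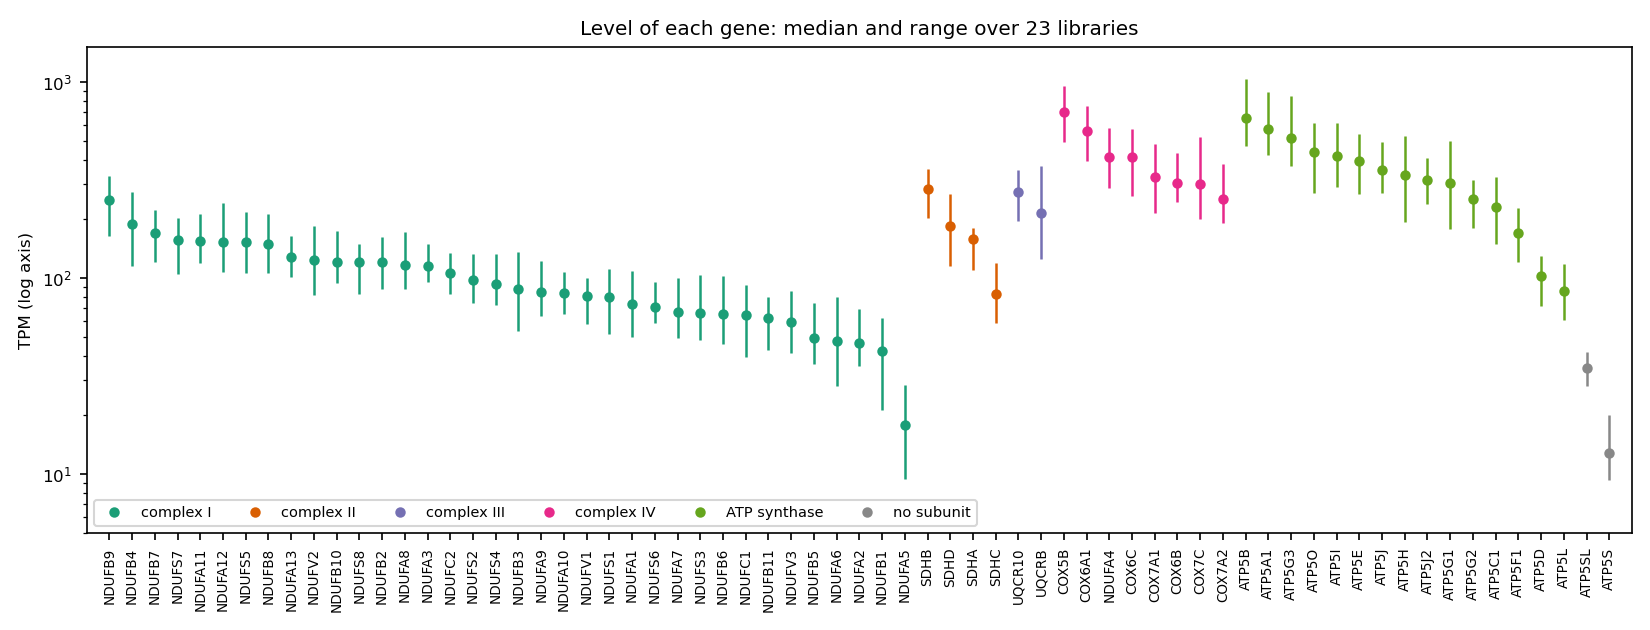
Level in TPM (log axis) of each of the 67 genes, by complex. Points are the median and lines the range over 23 libraries. Complex IV and ATP synthase genes lie highest, COX5B at 695 TPM and ATP5B at 656 TPM. NDUFA5 is the lowest subunit at 17.7 TPM, after correction for its effective length of 2595 bases.

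In complex IV, paralogs that differ by tissue were compared. Among the genes of the rule, COX5B (695 TPM) and COX6A1 (557 TPM), the broadly expressed form of subunit 6A, led the complex. The lowest tested of them was COX7A2 (253 TPM). Subunit 5A, which carries a LOC number and lies outside the rule, stood at 123 TPM. COX7A1, known as the heart and muscle form of subunit 7A, was listed at 327 TPM, between 214 and 480 over libraries, and COX7A2, its broadly expressed partner, between 190 and 382. Their ranges overlap. The effective length of COX7A1, by which its counts were divided, was only 182 bases, against 359 for COX7A2, and its counts were lower (a median of 56.5 CPM against 84.3 in CF), so its place above COX7A2 rests on the length correction. Skeletal and cardiac muscle genes summed to between 54.6 and 118 CPM over 8 genes, of which 6 were detected in every library. COX8H, the muscle form of subunit 8, stood at 0.715 TPM. Of the 3 genes for the c ring, the proton-driven rotor of ATP synthase, whose mature proteins are alike, ATP5G3 was highest (515 TPM), then ATP5G1 (304 TPM) and ATP5G2 (251 TPM). The range of ATP5G1 overlapped those of both others, which did not overlap each other.

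Several subunits carry a LOC number in the table and lie outside the rule, and their identity was read from the annotated product after the files had been seen. Of 17 such genes, 16 were tested. Cytochrome c1 (LOC100525869), the heme subunit of complex III, stood at 201 TPM, and the 2 core proteins of that complex (LOC100156879 and LOC100524613) at 205 and 97.9 TPM. COX4 isoform 1 (LOC100624067) stood at 452 TPM against 13.03 for isoform 2 (LOC110257420), and subunit 8A (LOC100522725) at 486 TPM. ATPIF1, the inhibitor of ATP synthase, whose symbol also falls outside the rule, stood at 362 TPM.

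Much of the variation of the genes from pig to pig was shared among them. The level of a library is given as the median over the 67 genes of log2 CPM minus the gene's own mean over the 23 libraries. It ran from -0.42 in WT pig 12 to 0.41 in HET pig 21. In WT pig 12, CF pigs 3, 5 and 6 and HET pig 13, only 1 of 67 genes lay above its own mean, while in HET pigs 20 and 21 it was 66 of 67. These levels are relative to the other genes of a library, since TMM scaling centres each library. The median SD over libraries was 0.27 (log2) for the 67 genes and 0.26 for all genes tested. With each library's level, which is made from the same 67 genes, subtracted, it was 0.10 for these genes. The genes that followed the common level least were ATP5S (SD of 0.40 after subtraction), NDUFB1 (0.25) and NDUFA6 (0.24). NDUFA9, a subunit near the ubiquinone site of complex I, followed it most closely (0.043).

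**Figure D2:**
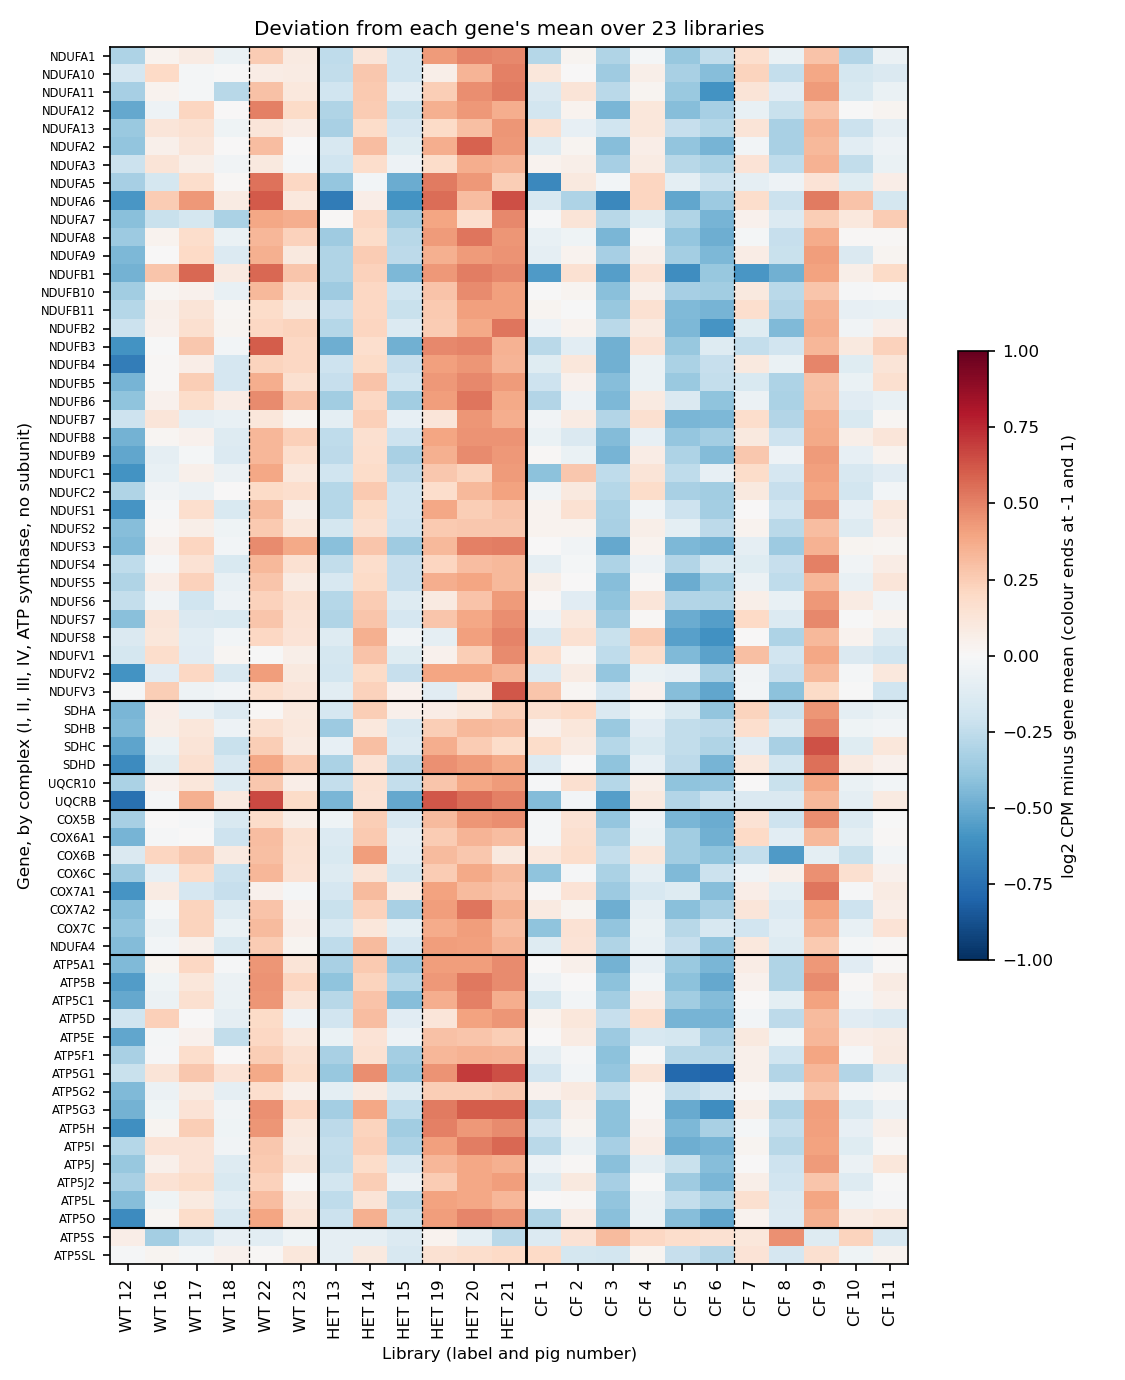
Deviation of log2 CPM from each gene's mean for the 67 genes (rows, by complex) in 23 libraries (columns, by label and pig number). Solid vertical lines part the labels and dashed ones the earlier from the later pigs. Columns take 1 colour nearly from top to bottom, as in WT pig 12 (level -0.42) and HET pig 21 (0.41), and ATP5S runs against them.

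The level was described by the run of pig numbers and by label, with no test. Among non-CF libraries it was -0.08 ± 0.22 (SD, n = 7) in the earlier and 0.31 ± 0.12 (SD, n = 5) in the later pigs. Among CF libraries it was -0.18 ± 0.21 (SD, n = 6) and 0.03 ± 0.22 (SD, n = 5). In the earlier pigs the labels overlapped, and WT pig 12 was lowest of all. In the later pigs the non-CF levels ran from 0.11 to 0.41 and the CF levels from -0.21 to 0.05, apart from CF pig 9 at 0.37. The share of TPM taken by the single non-coding RNA was 42.1% to 46.7% in the 5 later non-CF libraries and 44.3% to 51.6% in the 5 later CF libraries. It was 51.1%, 53.2% and 51.1% in CF pig 3, CF pig 5 and HET pig 13, which were low in level, but 49.5% in CF pig 9, which was high. It was also 53.1% and 51.4% in CF pigs 4 and 2, whose levels were both 0.03. In WT pig 12, lowest in level, it was 48.4%, and in WT pig 18, at a level of -0.07, it was 42.7%. Its part in the level was not tested. Each label occurred in both runs.

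**Figure D3:**
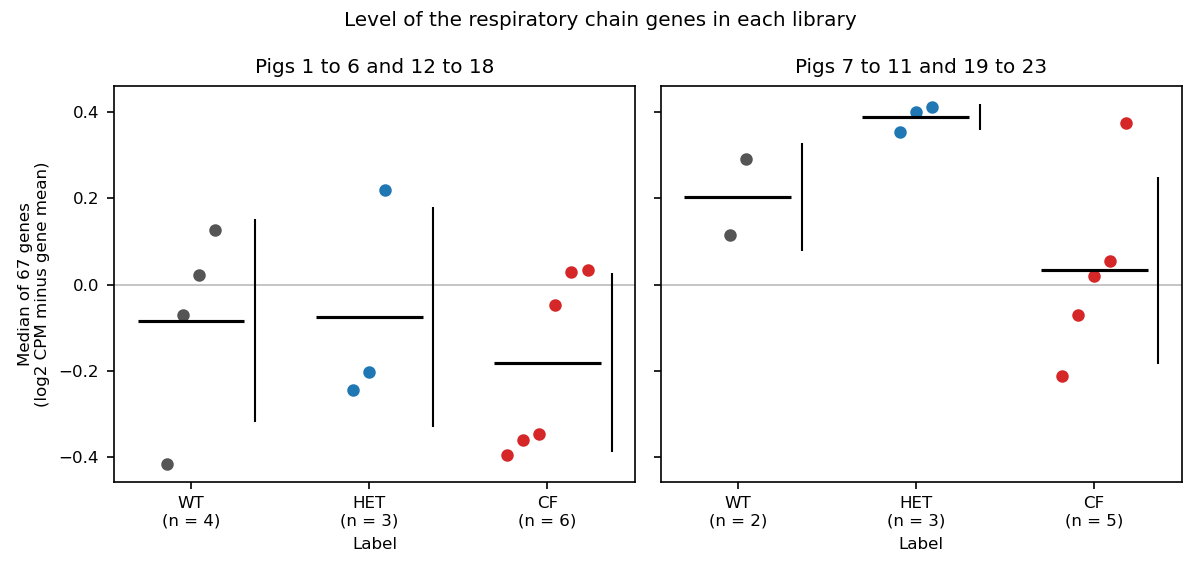
Level of the respiratory chain genes in each library, as the median over 67 genes of log2 CPM minus the gene mean, by label, for the earlier (left) and later (right) pigs. Points are libraries, horizontal lines means and vertical lines 1 SD on either side. The 3 later HET libraries lie between 0.35 and 0.41, and CF pig 9 lies among them at 0.37, above the other later CF libraries.

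The main comparison asked whether the genes differed between CF and non-CF kidneys. Of the 67 genes, 66 were estimated lower in CF, with a median log2 fold change of -0.17, where 50.2% of all 20921 genes tested were lower and their median was -5.17e-04. None of the 67 passed an adjusted p of 0.05 (edgeR, quasi-likelihood, adjusted by Benjamini-Hochberg), against 0.349% of all genes. At an unadjusted p under 0.05 there were 16, or 23.9%, of which 15 were lower, against 13.7% of all genes. DESeq2 called 2 genes, COX6B and ATP5S (2.48% of all genes by that tool), limma-voom 0 and an exact Mann-Whitney U test 0 (0.22% of all genes by either). At an unadjusted p under 0.05 the Mann-Whitney test gave 6 of the 67 genes, against 2435 of all 20921. The genes share the common level of their library, so 66 lower estimates are not 66 separate observations. For every gene the 95% confidence interval lay within 1 log2 unit of no difference, that is, within a change of 2-fold.

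**Figure D4:**
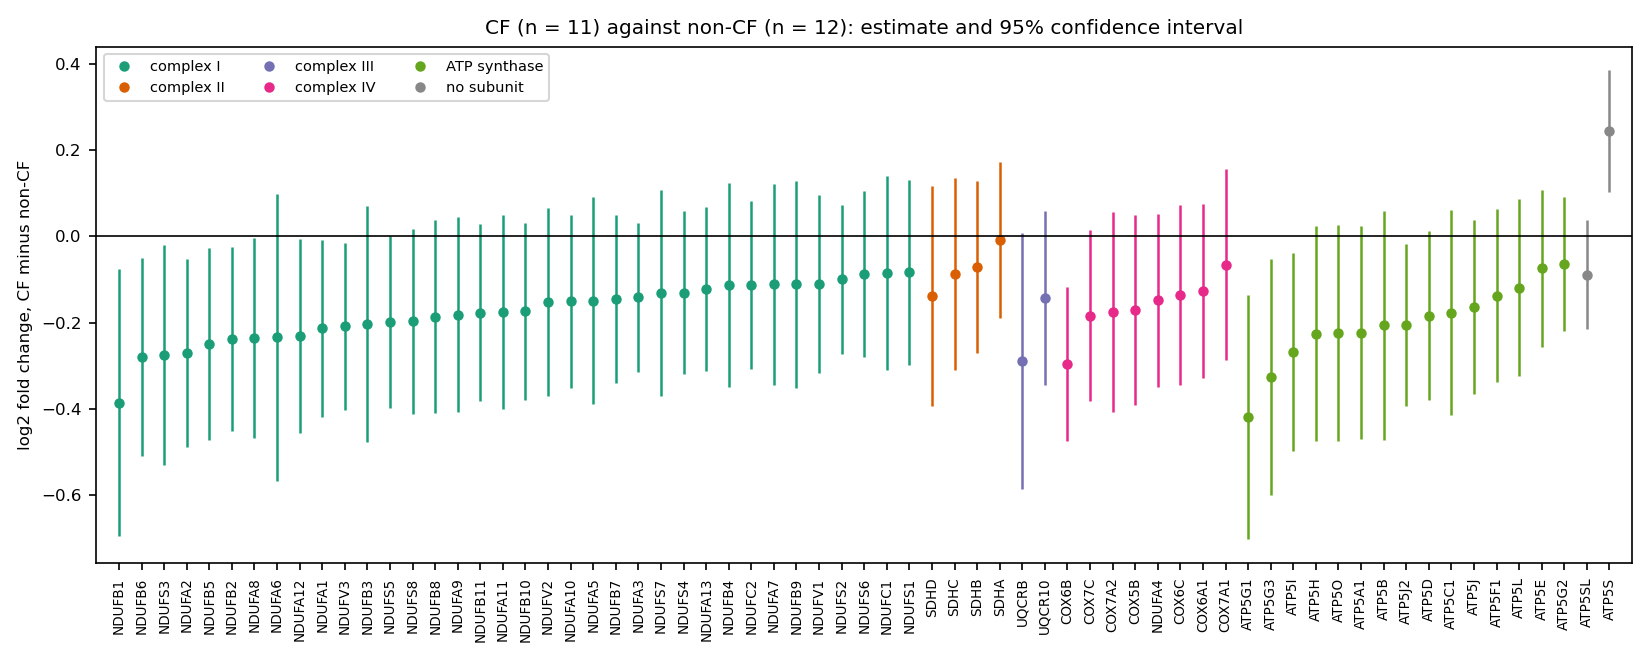
Log2 fold change of CF against non-CF for each of the 67 genes, by complex. Points are edgeR estimates and lines 95% confidence intervals. Estimates lie below 0 for 66 genes, most intervals cross 0, and ATP5S alone lies above, at 0.24.

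Complex I is the entry point for electrons of NADH. All 36 genes were estimated lower in CF (median -0.17). In edgeR 10 of them were under an unadjusted p of 0.05, against 13.7% of all genes. None passed after adjustment, against 0.349% of all genes. NDUFB1, a small accessory subunit, had 7.88, 9.34 and 16.1 CPM (lowest, median and highest) in CF, 8.91, 15.4 and 17.3 in HET and 8.74, 14.7 and 18.1 in WT. The ranges overlapped, and 10 of 11 CF libraries lay below the non-CF median. Its log2 fold change was -0.38 (SE 0.151, adjusted p = 0.238 in edgeR). NDUFA2, an accessory subunit with a thioredoxin-like fold, had 17.8, 22.9 and 30.9 CPM in CF, 22.1, 31.1 and 37.0 in HET and 18.7, 25.1 and 30.5 in WT, so that the median of HET was the highest of the 3 while all ranges overlapped. Its log2 fold change was -0.27 (SE 0.106, adjusted p = 0.239 in edgeR). The core subunits, among them the carriers of the flavin and iron-sulfur clusters, lay between -0.27 (NDUFS3) and -0.08 (NDUFS1), with edgeR's adjusted p of 0.319 and 0.790.

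Complex II, which is also succinate dehydrogenase of the citrate cycle and is encoded wholly in the nucleus, had the median closest to 0 (-0.08, 4 genes). None of the 4 was under an unadjusted p of 0.05 in edgeR, against 13.7% of all genes. SDHA, the flavoprotein that oxidizes succinate, had 242, 304 and 433 CPM in CF, 284, 340 and 378 in HET and 232, 314 and 342 in WT. Its log2 fold change was -0.01, with an interval from -0.19 to 0.17. SDHB, the iron-sulfur subunit, stood at -0.07, and the membrane anchors SDHC and SDHD at -0.09 and -0.14. Whether complex II differed from the other complexes was not tested. In complex III, UQCRB, which lies near the ubiquinone site, had 53.0, 70.6 and 97.3 CPM in CF, 54.6, 98.2 and 120 in HET and 46.3, 86.0 and 123 in WT. Its log2 fold change was -0.29 (SE 0.144, adjusted p = 0.382 in edgeR). UQCR10, a small subunit, stood at -0.14.

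Complex IV is the terminal oxidase, and its 8 tested genes were all estimated lower (median -0.16). COX6B, a subunit on the cytochrome c side, had 109, 138 and 183 CPM in CF, 145, 184 and 215 in HET and 146, 184 and 199 in WT. All 11 CF libraries lay below the non-CF median, though the ranges overlapped. Its log2 fold change was -0.30 (SE 0.086, adjusted p = 0.106 in edgeR), and DESeq2 gave an adjusted p of 0.0430. A gene annotated as 6B1-like (LOC100519366, 14.7 TPM) stood in the other direction, at 0.38 (SE 0.139, adjusted p = 0.205 in edgeR). Whether reads were split between these genes was not tested. With both summed, COX6B stood at -0.20 (edgeR's adjusted p = 0.200). COX7C, a small membrane subunit, stood at -0.18, COX5B at -0.17, COX6A1 at -0.13, COX7A2 at -0.17 and COX7A1 at -0.07.

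ATP synthase showed the largest single estimate. ATP5G1 had 82.0, 124 and 179 CPM in CF, 109, 196 and 231 in HET and 122, 159 and 185 in WT. CF pigs 5 and 6 were lowest, at 82.9 and 82.0 CPM. Its log2 fold change was -0.42 (SE 0.138, adjusted p = 0.149 in edgeR). The other c ring genes stood at -0.32 (ATP5G3, edgeR's adjusted p = 0.261) and -0.06 (ATP5G2, with an interval from -0.22 to 0.09). The difference between the c ring genes was not tested. ATP5A1, the alpha subunit, had 699, 920 and 1313 CPM in CF, 754, 1229 and 1350 in HET and 714, 1026 and 1318 in WT, a log2 fold change of -0.22 (edgeR's adjusted p = 0.426). All 15 subunits were estimated lower (median -0.21). ATP5S, named after its values were seen, encodes no subunit and was the only gene estimated higher. It had 19.9, 24.7 and 30.5 CPM in CF, 18.4, 20.9 and 22.8 in HET and 17.6, 20.9 and 23.3 in WT, a log2 fold change of 0.24 (SE 0.068, adjusted p = 0.0941 in edgeR and 0.0361 in DESeq2).

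With the 3 labels apart, the level was 0.16 ± 0.30 (SD, n = 6) in HET, 0.01 ± 0.24 (SD, n = 6) in WT and -0.08 ± 0.23 (SD, n = 11) in CF, and the libraries overlapped, HET pigs 13 and 15 lying below 5 of the 6 WT libraries. In TPM, without TMM factors, the group mean was higher in WT than in HET for complexes I (102 against 98.2), III (269 against 261) and IV (412 against 405). The comparisons below share libraries, and their values are given side by side. Against WT, CF was lower in 61 of 67 genes, with a median of -0.10. None of the 67 passed the adjusted threshold in edgeR, limma-voom or DESeq2 (0.349% of all genes in edgeR), and 3 did at an unadjusted p under 0.05, against 14.1%. That median was -0.15 without WT pig 12 or without CF pig 9 and -0.04 without WT pig 22. Against HET, CF was lower in 66 of 67, with a median of -0.24. None passed in any of these tools (0% of all genes in edgeR), and 23 were under an unadjusted p of 0.05, 34.3% against 9.89%. HET against WT gave 64 of 67 higher in HET and a median of 0.14, which was 0.08 without WT pig 12 and 0.09 without HET pig 20 or HET pig 21. Again none passed (0.00478% of all genes in edgeR, where the 1 gene was CFTR), and 1 was under an unadjusted p of 0.05, against 7.99%. That gene was COX7A1, at 0.35 (edgeR's adjusted p = 0.567). For most of the genes the estimate for HET thus lay above WT and that for CF below it. ATP5E, the F1 epsilon subunit, was 0.20 higher in HET than in WT and 0.03 higher in CF than in WT.

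Within the earlier pigs, 60 of 67 genes were estimated lower in CF, with a median of -0.10, and none passed in edgeR (0% of all genes). Of these, 1 gene, ATP5S, was under an unadjusted p of 0.05, against 9.31% of all genes, and was higher in CF. Within the later pigs 66 of 67 were lower, with a median of -0.25, and 4 fell in CF at an adjusted p under 0.05, 5.97% against 2.27% of all genes. At an unadjusted p under 0.05 there were 33, all lower, against 17.4% of all genes. The 4 were NDUFA5, COX6B, UQCRB and NDUFB6. NDUFA5, an accessory subunit of complex I, had 41.4, 42.6, 48.4, 40.5 and 46.1 CPM in CF pigs 7 to 11, 63, 59.4 and 52.2 in HET pigs 19 to 21 and 64.2 and 50.9 in WT pigs 22 and 23. The groups did not overlap (log2 fold change -0.40, edgeR's adjusted p = 0.0316). COX6B had 137, 109, 151, 138 and 159 CPM in CF pigs 7 to 11, 201, 194 and 173 in HET pigs 19 to 21 and 199 and 180 in WT pigs 22 and 23, also without overlap (log2 fold change -0.44, edgeR's adjusted p = 0.0362). UQCRB and NDUFB6 overlapped between groups and stood at -0.49 and -0.45 (edgeR's adjusted p = 0.0383 and 0.0434). The share of all genes without overlap was not counted, and these genes were picked by their calls in the same libraries. These calls rest on few libraries. Leaving out a library at a time gave between 0 and 18 called genes: 0 without CF pig 7, CF pig 10, HET pig 19, HET pig 20 or WT pig 22, 1 without CF pig 8 or CF pig 11, 2 without HET pig 21, 6 without WT pig 23 and 18 without CF pig 9. Of all genes, 0.834% (without HET pig 20) to 2.90% (without WT pig 23) were then called, with 2.55% without CF pig 9 and 2.05% without CF pig 10. COX6B was called in each of these subsets that gave a call. The difference between the later and the earlier CF effects passed the adjusted threshold for none of the 67 genes in edgeR or DESeq2 (0.0191% of all genes in edgeR). It was under an unadjusted p of 0.05 for 1 gene, against 10.1% of all genes. This was NDUFA5 (-0.48, edgeR's adjusted p = 0.329), whose estimate in the earlier pigs was 0.08. The effect was thus not shown to differ between the runs of pigs.

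Other mitochondrial genes encoded in the nucleus were set beside the subunits for CF against non-CF. The smallest of edgeR's adjusted p in these lists was 0.0865. Mitochondrial ribosomal proteins, which translate the subunits encoded in mitochondrial DNA, were estimated lower in 66 of 77 genes, with a median of -0.09, and 9 of them, 11.7%, had an unadjusted p under 0.05, fewer than the 13.7% of all genes. Citrate cycle enzymes were lower in 12 of 13, with a median of -0.07. Electron carriers and the enzymes that feed them were lower in 17 of 18 (median -0.09), and CYCS, cytochrome c itself, stood lowest among them at -0.56 (SE 0.16, adjusted p = 0.102 in edgeR). Genes of cristae and of mitochondrial fission and fusion were lower in 9 of 12 (median -0.05), led by APOO, a cristae protein, at -0.35 (edgeR's adjusted p = 0.0865). Of 20 regulators of mitochondrial biogenesis, 10 were lower and 10 higher, with a median of 0.03, and GABPA, a subunit of GABP, stood at 0.16 (edgeR's adjusted p = 0.128). Cytosolic ribosomal proteins, whose transcripts are also short and abundant, were estimated higher in 57 of 80 genes (median 0.04). Of the LOC-numbered subunits 12 of 16 were lower (median -0.13), among them cytochrome c1 at -0.23 (edgeR's adjusted p = 0.355).

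**Figure D5:**
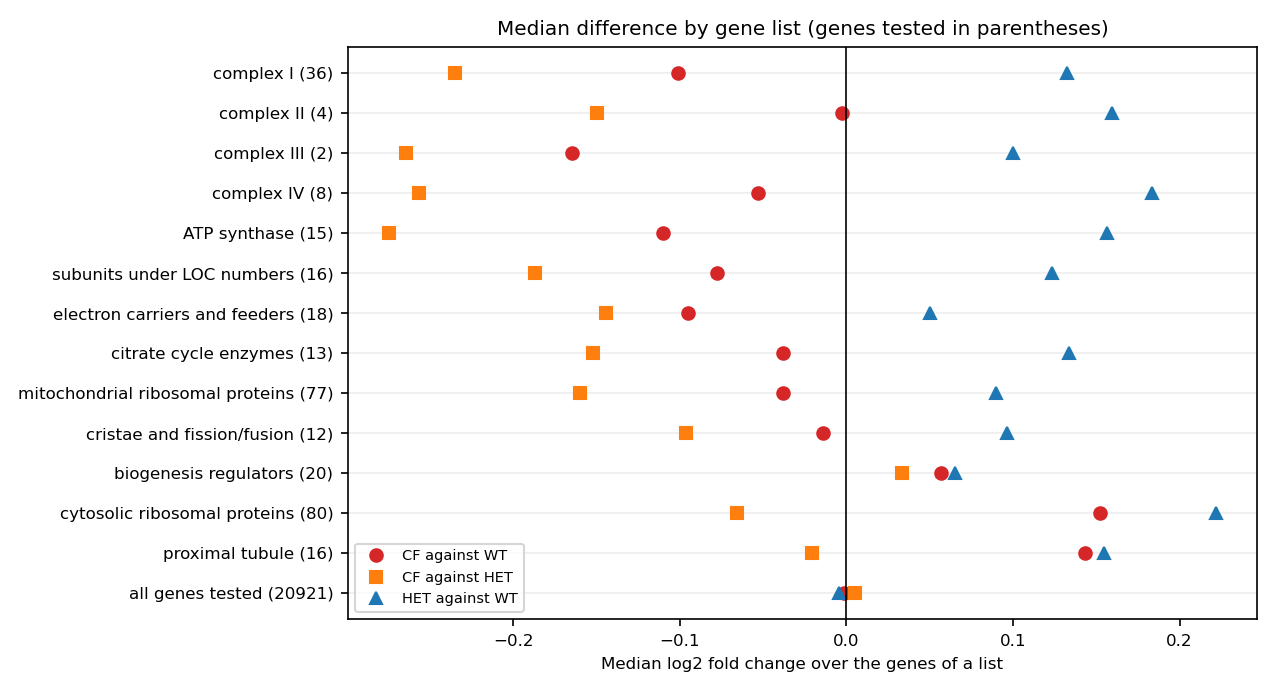
Median log2 fold change over the genes of each list for CF against WT (circles), CF against HET (squares) and HET against WT (triangles), with the genes tested in parentheses. Subunit lists lie at or left of 0 for CF and right of 0 for HET against WT, biogenesis regulators lie near 0, and cytosolic ribosomal proteins reach 0.22 for HET against WT. The 3 comparisons share libraries.

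Marker genes of the nephron were set beside the subunits. Proximal tubule genes were estimated higher in CF in 12 of 16 (median 0.05), with sums of 9111 to 16465 CPM in CF, 10087 to 14917 in HET and 8588 to 12588 in WT. As a level per library, like that of the respiratory chain genes, they stood at -0.53 in WT pig 12, -0.37 in CF pig 3, -0.25 in HET pig 13 and -0.23 in CF pig 6, all low in the respiratory chain genes. In CF pig 8 and HET pig 15, also low in those, they stood at 0.07 and 0.03. They stood at 0.54 in CF pig 9 and 0.29 in HET pig 19, which were high in them, but near 0 in HET pig 20, HET pig 21 and WT pig 22 (0.0049, 0.05 and -0.02), which were high as well. Loop of Henle and distal tubule genes, from segments dense in mitochondria, were estimated lower in CF in 8 of 9 (median -0.16), with sums of 1336 to 2048 CPM in CF, 1389 to 2549 in HET and 1553 to 2319 in WT. All 9 were detected in every library. The lowest was CALB1, a calcium-binding protein of the distal tubule, at -1.40 (edgeR's adjusted p = 0.0636). As a level per library, these distal genes stood at -0.38 in CF pig 6 and -0.34 in HET pig 13, where the respiratory chain genes were low. They stood at 0.22, 0.36 and 0.36 in HET pigs 19, 20 and 21, where those were high. Other libraries high in the respiratory chain genes had distal levels near 0, at 0.0017 in CF pig 9 and -0.04 in both WT pig 22 and HET pig 14. WT pig 12, lowest in the respiratory chain genes, stood at 0.28. In the later pigs, 4 of the 9 distal genes fell in CF at an adjusted p under 0.05 in edgeR, against 2.27% of all genes, and these were not refitted with each library left out.

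Stroma and mural genes, of fibroblasts and vessel walls, were estimated higher in CF in 7 of 9 (median 0.13), and all 9 were detected in every library. Their sums were 2205 to 4500 CPM in CF, 2000.2 to 3358 in HET and 2172 to 4633 in WT. Their level per library was 0.38 in WT pig 12, where the respiratory chain genes were lowest, and -0.51 to -0.09 in the 5 later non-CF libraries, where those were high. In the 5 later CF libraries it ran from -0.24 to 0.16, overlapping the later non-CF range. The highest stroma level was 0.67, in CF pig 1, with 0.27 and 0.26 in WT pigs 17 and 16, whose respiratory chain levels were near the middle. CF pig 6, low in the respiratory chain genes, was also low here, at -0.27.

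Brown fat, another tissue dense in mitochondria, was looked at through 6 genes, which summed to 27.3 to 60.7 CPM and were each detected in every library. UCP1, an uncoupling protein, was at most 0.413 CPM in any library, and nothing about brown fat is concluded from it. The level of the 4 tested genes was 0.35 to 0.64 in HET pigs 19, 20 and 21 and CF pig 9, high in the respiratory chain genes, and -0.65, -0.37 and -0.54 in CF pigs 6, 3 and 5, low in them. It was also 0.71 in CF pig 8 and 0.25 in WT pig 12, both low in them. The muscle genes stood at -0.25, -0.20, -0.22 and -0.29 in HET pigs 14, 19, 20 and 21 and at 0.22, 0.21 and 0.25 in CF pig 6, CF pig 5 and HET pig 13, but at 0.20 in CF pig 9. Immune genes stood at 0.25, 0.45 and 0.27 in HET pigs 19, 20 and 21 and at -0.29 to -0.06 in the 5 later CF libraries. They stood at 0.41 in CF pig 6, low in the respiratory chain genes, and at -0.23 in WT pig 22, high in them. Erythroid genes stood at 0.44, 0.33 and 0.26 in HET pigs 19, 20 and 21, but at 0.45 in WT pig 12 and -0.11 in CF pig 9. The part of any of these cell types in the level of the respiratory chain genes was not tested.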

How the data were processed

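Total RNA of kidney cortex from 23 newborn pigs was depleted of ribosomal RNA and sequenced by the authors with a stranded kit. The deposited estimated counts per transcript were made by the authors with kallisto against pig transcripts of Sscrofa11.1, one file per library. The deposited TPM values come from the same runs and were scaled over all transcripts, non-coding ones included.

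Estimated counts were summed by symbol with the authors' transcript table and rounded. The main test was edgeR 4.0.16 (quasi-likelihood, TMM normalization, filterByExpr, Benjamini-Hochberg adjustment over all genes tested) in R 4.3.3, for CF against non-CF and in a 3-group fit for the labels apart. The CF effect was also fitted within each run of pig numbers and as an interaction. CPM values are counts scaled to library size with TMM factors. Level, a median over genes, and medians over lists carry no test. Pigs are separate animals, but litter and sex are not in the labels used here. Depth was 32901281 to 52952273 estimated counts, so 3 counts are 0.0567 to 0.0912 CPM.

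Genes named are those of complex II, the highest and lowest in TPM and those with the smallest p in each other complex and comparison, any with an adjusted p under 0.05, the tissue paralogs, and up to 3 genes of each other list. The respiratory chain genes and all lists were chosen with earlier results of these data known. Alternatives were DESeq2 1.42.0, limma-voom (limma 3.58.1), an exact Mann-Whitney U test, other normalizations and filters, length-scaled TPM, covariates and leaving out each library. The fits were tested on simulated data. Promoter windows and products were read from RefSeq's Sscrofa11.1 annotation. Values were summarised in Python 3.11.15 with pandas 2.3.3, numpy 2.4.6 and scipy 1.17.1, and drawn with matplotlib 3.10.9.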

Additional observations from a re-analysis of the deposited data

How the results depend on the processing

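No paired analysis was possible because litter is not in the labels used here, so any littermates were compared as unpaired. For CF against non-CF, none of the 67 genes passed the adjusted threshold in edgeR under any other normalization, filter, count or covariate tried, nor in limma-voom or the exact Mann-Whitney U test. DESeq2 called 2, and the later pigs alone gave 4. The median log2 fold change over the genes lay between -0.25 (later pigs) and -0.10 (earlier pigs) under these settings, and between -0.22 without CF pig 9 and -0.13 without HET pig 20 when each library was left out. For CF against HET leaving out a library gave -0.30 to -0.18, for CF against WT -0.15 to -0.04 and for HET against WT 0.08 to 0.21. With the run of pigs as a term the median of HET against WT was 0.09. Calls in the later pigs ranged from 0 to 18 as each library was left out, an alternative chosen after seeing the data. Of the 26 named genes, 3 turned direction in the earlier pigs: NDUFA5 (0.081), ATP5G2 (0.0069) and SDHA (0.0065). SDHA also turned when 8 libraries were left out 1 at a time, with values between -0.059 without CF pig 9 and 0.023 without CF pig 6 over all 23. The cause was not tested. Rescaled over mRNA transcripts only, also chosen after seeing the data, median TPM was 226 for complex I, 408 for complex II, 597 for complex III, 908 for complex IV and 857 for ATP synthase, since the non-coding RNA no longer enters the total. With genes annotated as like a member summed into that member, again chosen after seeing the data, the median was -0.17. At 11 against 12 libraries the intervals of the 67 genes exclude changes of 2-fold, but not small ones.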

Other observations

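Of the genes that assemble complex I, 15 were tested for CF against non-CF, of which 11 were estimated lower (median -0.09), 3 at an unadjusted p under 0.05, against 13.7% of all genes. Of the complex IV assembly factors 7 of 9 were lower (median -0.04), and COX17, the copper chaperone that supplies the enzyme, stood at -0.25 (edgeR's adjusted p = 0.194). BCS1L, which inserts the Rieske protein into complex III, stood at -0.25 (edgeR's adjusted p = 0.241).

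In the later pigs, where edgeR called 2.27% of all genes, 3 of 18 genes of electron carriers and their feeders fell in CF, 1 of 13 citrate cycle enzymes, 2 of 12 cristae and fission or fusion genes (APOO and DNM1L) and 1 of 9 complex IV assembly factors. None of 77 mitochondrial ribosomal proteins, 20 biogenesis regulators or 15 complex I assembly factors was called by edgeR, with 27, 3 and 4 of them at an unadjusted p under 0.05, against 17.4% of all genes. Among the called genes were CYCS, cytochrome c, which fell by 0.83 on the log2 scale (edgeR's adjusted p = 0.0114), GPD2, the mitochondrial glycerol phosphate dehydrogenase that passes electrons to ubiquinone, which fell by 0.77 (0.00314), and COX17, which fell by 0.50 (0.0196). PDSS1, which makes the side chain of ubiquinone, fell by 0.46 (0.0265) and CS, citrate synthase, by 0.36 (0.0494). For GPD2 the CF effect differed between the later and the earlier pigs, by -1.02 (edgeR's adjusted p = 0.00964). These genes were not refitted with each library of the later pigs left out.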
